A study of Mus musculus with 4 samples.

Results

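Glypicans and syndecans are the 2 main families of cell-surface heparan sulfate proteoglycans, and their RNA was measured here in odontoblasts, the cells that deposit dentin, against osteoblasts, the cells that deposit bone. The members were taken as every non-control probe whose gene name in the scanner files was Gpc1 to Gpc6 or Sdc1 to Sdc4. This gave 10 genes of the 24161 named on the array, read by 13 of its 55681 probes. Each of 4 Agilent arrays held, per the labels, odontoblast RNA in Cy5 and osteoblast RNA in Cy3. Mice were 2 weeks old, carried EGFP under a 2.3 kb fragment of the type I collagen promoter, and gave matched pairs of cells. Cells were released by enzyme digestion of dental pulp and of calvaria (skull vault bone) and sorted on green fluorescence, so any cell in which that promoter fragment was active could be collected. The strain is labelled C57BL/6 in the odontoblast channel. The number of animals behind each RNA was not stated. The p-values below reflect array-to-array spread alone, which may be technical.

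A glypican is held to the outer membrane by a lipid anchor, while a syndecan spans the membrane and has a short cytoplasmic tail that binds scaffold proteins. Both carry heparan sulfate, a long sulfated sugar chain that captures fibroblast growth factors, Wnts, hedgehogs, BMPs and other ligands and presents them to their receptors. In the skeleton and in the developing tooth these chains are known to shape how far such ligands spread and how strongly cells respond to them.

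All ratios are log2 of Cy5 over Cy3 after background correction and loess normalisation, and positive values stand for more signal in Cy5, the odontoblast label. Dyes were not swapped, so dye and cell type cannot be told apart. Most odontoblast and osteoblast markers had means against their labels. Dspp, the gene of the main non-collagenous dentin protein, had a ratio of -1.95 (limma adjusted p = 0.0602), and Nes, the gene of the filament protein nestin, one of -2.0 (adjusted p = 0.0689). The bone gene Ifitm5 lay at 5.05 (adjusted p = 0.0167) and the collagen gene Col1a2 at 2.79 (adjusted p = 0.0230), toward the channel labelled odontoblast. Among 9 odontoblast markers 0 were called toward Cy5 and 3 toward Cy3, and among 11 osteoblast markers 4 toward Cy5 and 0 toward Cy3. The shares of all genes called were 1.28% toward Cy5 and 0.865% toward Cy3. Means of 6 odontoblast markers were negative and those of 3 positive, namely Smpd3 (1.41), Phex (0.38) and Cpne7 (0.29). All 11 osteoblast means were positive, although Sp7 (0.02) and Alpl (0.05) lay near 0. Channels are therefore named by dye and label, and an exchange of the labels would turn the sign of each ratio. Ratios of different arrays correlated at 0.323 to 0.533 over all genes. Median signal over background was 7.10 to 8.21 in Cy5 and 10.9 to 16.0 in Cy3, and the 4 arrays shared 1 slide and 1 scan time. In sorted bulk RNA, fewer cells that express a gene and less RNA per cell cannot be told apart.

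Each gene was read by 60-base probes, and 12 of the 13 were bright enough to be tested (above background on 3 or more arrays in Cy5, or on 3 or more in Cy3). The probes that carry the results below are shown by their first 30 bases, 5′ to 3′, on the strand of the transcript. Capitals mark the longest run that the shown bases share with a probe of any other glypican or syndecan gene.
Gpc4, first probe: tcctagtgACTTTGCtttttaaatgaatgg
Gpc4, second probe: tgccTTATTGGGAGagaagtggagttgact
Gpc1: cggtgtcagTGGATAAtgtgtgttctttga
Gpc2: CCAATTAatggggtgggaggtagatgggtt
Sdc2: taatggccttaattcataCCTTTCTgtcca
Sdc3: gagttcATGGCCaaaacttaaataagagaa
Sdc4: ttgttccAAATTTccagaatagaatatagg
Over the full 60 bases the longest run shared between any 2 of these genes was 10 bases. None of the 13 probes shared a run of 20 bases with another probe on the array. Probes were compared with probes only, and binding to transcripts of other genes was not tested. On mm9, the build of the files, the first Gpc4 probe lies at chrX:49406560-49406619 and the second at chrX:49406100-49406159, both on the minus strand and 460 bases apart. The Gpc1 probe lies at chr1:94756711-94756770 (plus strand), that of Gpc2 at chr5:138715328-138715387 (minus), that of Sdc2 at chr15:32964204-32964263 (plus), that of Sdc3 at chr4:130382015-130382074 (plus) and that of Sdc4 at chr2:164251211-164251270 (minus). Sdc1 was read at chr12:8799383-8799442 (plus), Gpc3 at chrX:49625740-49625799 (minus), Gpc6 at chr14:118375311-118375370 (plus) and Gpc5 at chr14:116923600-116923659 (plus). The exon or UTR of a probe was not annotated in the sources used here. In the RefSeq table of GRCm38.p6, Gpc3 and Gpc4 are direct neighbours on chromosome X, and Gpc5 and Gpc6 have 0 protein-coding genes between them on chromosome 14.

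The 2 families did not move as a block. All 10 genes passed the filter on dim probes. Of them Gpc4 was higher in the channel labelled odontoblast and Sdc3 was higher in the channel labelled osteoblast, at an adjusted p under 0.05 in limma over all features of the array. Among all 19762 genes tested, 1.28% were called higher in Cy5 and 0.865% higher in Cy3, together 2.15%. The mean ratio was positive for 5 members and negative for 5, and their median was 0.02, against 0.01 for all genes. The ratio had 1 sign on all 4 arrays for 7 of 10 members, a property of 31.4% of all genes. The mean ratio exceeded 2-fold for 4 members, Gpc4, Sdc2, Gpc1 and Sdc3, and for 12.5% of all genes. At an unadjusted p under 0.05 the count was 7 of 10 members, against 21.2% of all genes.

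**Figure D1:**
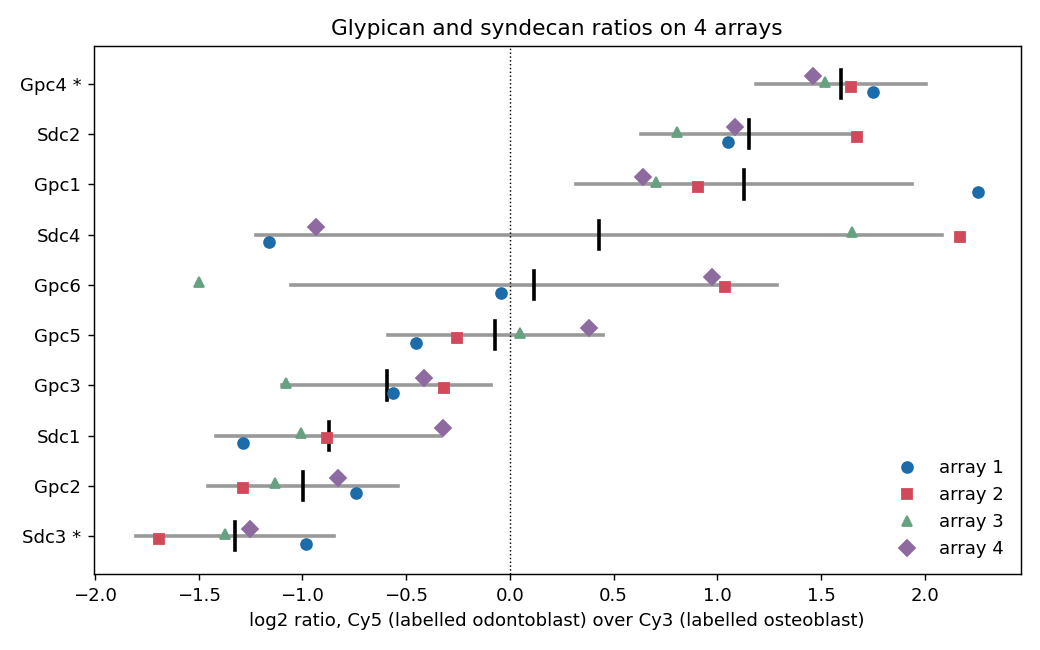
Log2 ratio of Cy5 (labelled odontoblast) over Cy3 (labelled osteoblast) for the brightest probe of each glypican and syndecan gene, 1 symbol per array, with the mean (black tick) and limma's 95% confidence interval (grey bar); an asterisk marks an adjusted p under 0.05. Gpc4 at the top and Sdc3 at the bottom have all 4 arrays on 1 side of 0, whereas Sdc4 has 2 arrays on each side.

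Among the glypicans, Gpc4, which binds ligands of the FGF and Wnt families, had the largest ratio toward Cy5. Its normalised intensity on arrays 1 to 4 was 5555, 6970, 3888 and 4364 in Cy5, against 1648, 2226, 1357 and 1584 in Cy3. The channels did not overlap, and the lowest Cy5 value exceeded the highest Cy3 value. For this and the members below, the share of all genes without such overlap was not computed. Non-overlap requires 1 sign on all 4 arrays, which 31.4% of all genes had. The log2 ratios of Gpc4 were 1.75, 1.65, 1.52 and 1.46, with a mean of 1.595 ± 0.16 (SE, n = 4) or 3.02-fold (limma adjusted p = 0.0218). The SD of 0.13 was small, since 96.8% of genes varied more between arrays. The second Gpc4 probe was also higher in Cy5 on all 4 arrays, at ratios of 1.15, 1.16, 0.78 and 0.86. Its mean was 0.99 ± 0.18 (SE, n = 4), and with every probe fitted as a feature it was not called (limma adjusted p = 0.0724). The probes of Gpc4 thus shared the direction and differed in size. Leaving out any 1 array took Gpc4 over the threshold, at adjusted p-values of 0.0541 to 0.121, while its mean stayed between 1.54 and 1.64.

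Gpc1, a widely expressed glypican that takes part in FGF signalling, also lay toward Cy5 but was not called. Its intensity was 23226, 15159, 14343 and 10096 in Cy5, against 4852, 8094, 8801 and 6460 in Cy3. All 4 Cy5 values lay above all 4 Cy3 values, and array 1 had both the highest Cy5 and the lowest Cy3 value. Ratios were 2.26 on array 1 and 0.91, 0.70 and 0.64 on the others, with a mean of 1.13 ± 0.32 (SE, n = 4, limma adjusted p = 0.167). Without array 1 the mean log2 ratio was 0.75. On all 4 arrays with median centring in place of loess, it was 1.59 and passed the test (limma adjusted p = 0.0462).

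Gpc2, known as cerebroglycan from its discovery in the developing nervous system, lay toward Cy3. Its intensity was 2427, 1148, 2146 and 2452 in Cy5, against 4064, 2798, 4699 and 4348 in Cy3. Every Cy5 value was below every Cy3 value. The mean ratio was -0.997 ± 0.18 (SE, n = 4), with single arrays between -1.29 and -0.74, but the limma adjusted p of 0.0765 missed the threshold. Its 95% confidence interval ran from -1.45 to -0.54.

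Gpc3, a growth-restraining glypican whose loss causes an overgrowth syndrome in humans, had negative ratios on all 4 arrays, of -0.56, -0.32, -1.08 and -0.42. Its intensities were 379, 843, 995 and 1602 in Cy5, against 559, 1051, 2104 and 2137 in Cy3. The channels overlapped across arrays although each array put Cy3 above Cy5, and the level in a channel differed up to several-fold between arrays. The mean of -0.59 ± 0.20 (SE, n = 4) was not called (limma adjusted p = 0.211). A second Gpc3 probe lying 115152 bases from the first, did not rise above background in Cy5 or in Cy3 on any of the arrays. Gpc3 and its neighbour Gpc4 lay on opposite sides of 0. Gpc4 minus Gpc3 was 2.31, 1.97, 2.60 and 1.88 on arrays 1 to 4, a mean of 2.19 ± 0.33 (SD, n = 4). An exact sign permutation test gave a two-sided p of 0.125, the smallest that 4 arrays allow, and 0.25 after adjustment over the 2 neighbouring pairs compared.

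Gpc5 and Gpc6, the neighbours on chromosome 14, had mean ratios near 0. Gpc5 was dim, with 157 to 224 intensity units in Cy5 and 172 to 224 in Cy3 at its brighter probe, and it was above background throughout. Its ratios were -0.45, -0.26, 0.05 and 0.38 (mean -0.07, limma adjusted p = 0.878), with an interval from -0.59 to 0.45 for the fitted ratio. The second Gpc3 probe, which never rose above background, read 77 to 113 units in Cy5. With the Gpc5 signal so near that level, the interval cannot exclude a 2-fold difference in RNA. The other Gpc5 probe was well above background on 3 arrays in Cy5 and on 1 in Cy3, at a mean of 0.04. Gpc6, whose human counterpart is needed for limb bone growth, spread widely. Its intensity was 1434, 3243, 1343 and 2324 in Cy5, against 1476, 1578, 3789 and 1183 in Cy3, and array 3 stood opposite to arrays 2 and 4. Ratios of -0.04, 1.04, -1.497 and 0.97 gave a mean of 0.12 ± 0.47 (SE, n = 4, limma adjusted p = 0.910), with an interval from -1.05 to 1.29 that does not leave out a change of 2-fold. Gpc6 minus Gpc5 averaged 0.19 ± 1.22 (SD, n = 4, exact sign permutation p = 0.75, adjusted 0.75).

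**Figure D2:**
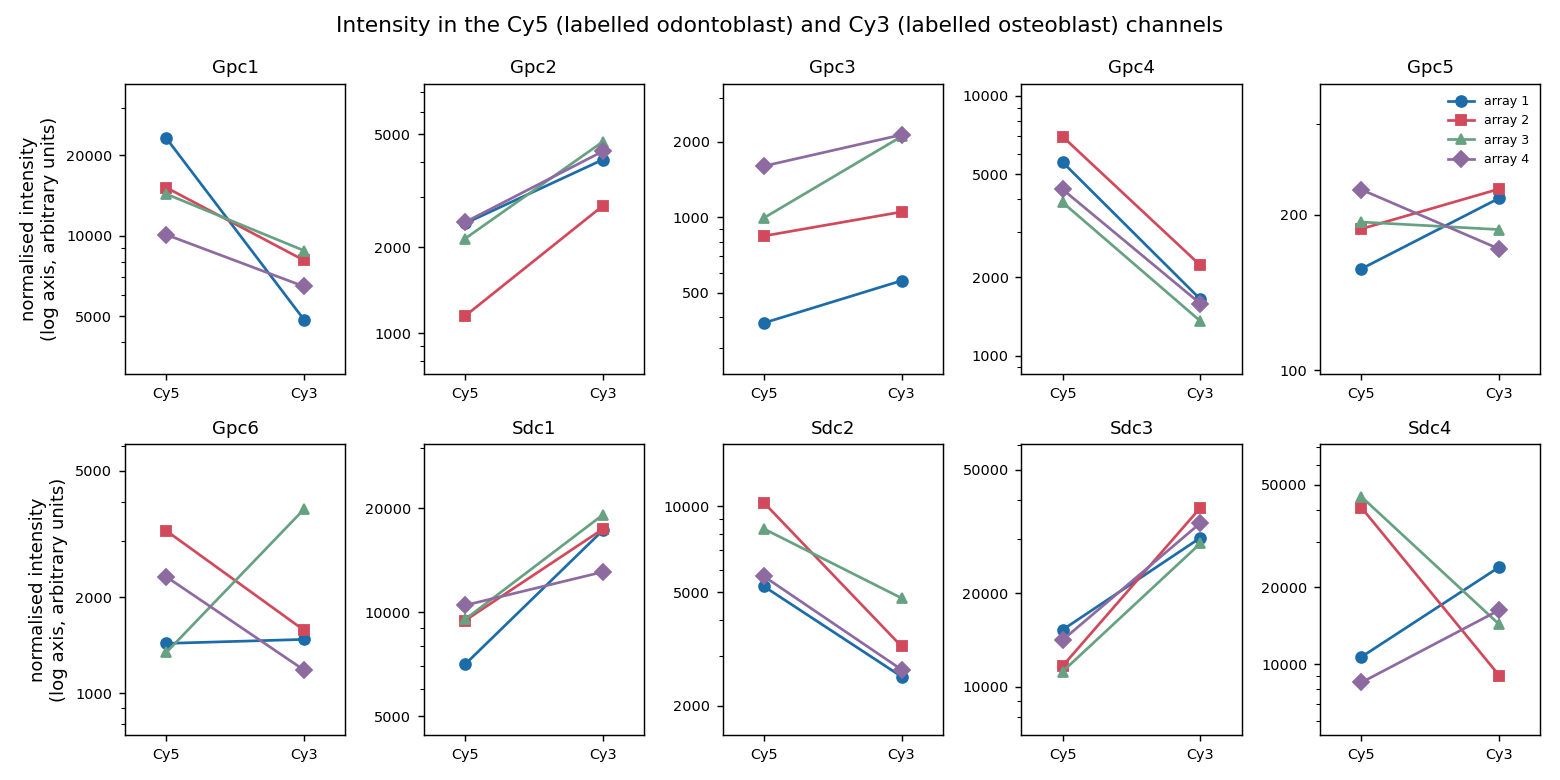
Normalised intensity on a log axis (arbitrary units, scaled per panel) in Cy5, labelled odontoblast, and Cy3, labelled osteoblast, with a line joining the 2 channels of each array. Lines for Gpc4 run parallel from Cy5 down to Cy3 and those for Sdc3 run up, while the lines of Sdc4 and of Gpc6 cross; levels are not comparable between panels because each has its own probe.

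Among the syndecans, Sdc3, a syndecan of neural tissue and developing limb cartilage, had the largest ratio toward Cy3. Its intensity was 15272, 11678, 11206 and 14160 in Cy5, against 30226, 37771, 28988 and 33718 in Cy3. The highest Cy5 value was below the lowest Cy3 value. Ratios of -0.98, -1.69, -1.37 and -1.25 gave a mean of -1.33 ± 0.19 (SE, n = 4), or 2.51-fold more signal in Cy3, labelled osteoblast (limma adjusted p = 0.0456). The call was close to the threshold. It was lost without any 1 of the arrays (adjusted p = 0.0975 to 0.191), with scale normalisation between arrays (adjusted p = 0.0529) and with the software's own processed signals (adjusted p = 0.0799). With median centring the mean was -0.65 (adjusted p = 0.111), where the median of all genes was 0.20, against 0.01 with loess.

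Sdc1, the syndecan of epithelia, of plasma cells and of condensing tooth mesenchyme in mice, lay on the same side but was not called. Its intensity was 7072, 9471, 9546 and 10485 in Cy5, against 17271, 17420, 19155 and 13096 in Cy3. The channels did not overlap, and array 4 had the smallest gap. The mean ratio was -0.87 ± 0.22 (SE, n = 4, limma adjusted p = 0.136), and -0.36 with median centring. Markers of dental and oral epithelium moved with it in part. Of 9 measured, 2 were higher in Cy3 and 0 in Cy5, namely Odam (-5.00) and Ambn (-3.05). Over all genes, 0.865% were called toward Cy3 and 1.28% toward Cy5. The summed intensity of the epithelial list was 2250 to 3135 in Cy5 and 6528 to 12660 in Cy3. The keratins Krt14 (-0.10), Krt5 (-0.14) and Krt17 (0.03) and the epithelial gene Epcam (-0.03) had means near 0. Amelx stood at 0.26, while Enam (-1.58) and Perp (-1.65) were negative, and none of these was called. Cdh1 did not pass the filter on dim probes. Of the 4 measured plasma and B cell markers, 0 were called in limma (1 at an unadjusted p under 0.05), with sums of 2286 to 3969 in Cy5 and 2614 to 7883 in Cy3, and Jchain and Ms4a1 were among those that did not pass the filter. The part of these cells in the Sdc1 ratio was not tested.

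Sdc2, a syndecan of mesenchymal cells, ran the other way. Its intensity was 5242, 10299, 8339 and 5682 in Cy5, against 2530, 3229, 4766 and 2677 in Cy3. The lowest Cy5 value exceeded the highest Cy3 value. Ratios of 1.05, 1.67, 0.81 and 1.09 gave a mean of 1.15 ± 0.21 (SE, n = 4) or 2.23-fold, which missed the threshold (limma adjusted p = 0.0738). With median centring it was 1.45 and passed (adjusted p = 0.0237). Markers of fibroblasts and periosteum lay toward the same channel in part, with 5 of 9 higher in Cy5 and 0 in Cy3. Their means were positive for 7 and negative for 2, Postn (-1.62) and Pdgfra (-1.05). The sums of that list overlapped, at 181944 to 272173 in Cy5 and 60188 to 217027 in Cy3. Cartilage markers lay toward Cy5 as well, with 3 of 7 higher in Cy5 and 0 in Cy3 (44886 to 203950 in Cy5 and 3798 to 5258 in Cy3). Of those 3, Col2a1 passed the filter through Cy5 alone, being well above background in Cy3 on 1 array. Among all genes, 1.28% were called higher in Cy5 and 0.865% higher in Cy3. The largest ratios in these 2 marker lists were Tnmd (5.55) and Comp (6.92), and the lowest Postn (-1.62) and Matn1 (0.41). Their part in the ratios of Gpc4, Gpc1 and Sdc2 was not tested.

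Sdc4, the syndecan of focal adhesions, had no common direction. Its intensity was 10690, 40752, 44941 and 8500 in Cy5, against 23922, 9047, 14311 and 16263 in Cy3. On arrays 2 and 3 Cy5 stood far above Cy3, and on arrays 1 and 4 Cy3 stood above Cy5. The ratios were -1.16, 2.17, 1.65 and -0.94, with a mean of 0.43 ± 0.66 (SE, n = 4, limma adjusted p = 0.755) and an interval from -1.22 to 2.08. Its SD of 1.72 was exceeded by 3.89% of genes, and the median SD over genes was 0.54. Other syndecans did not share the split, and over the 10 members the arrays correlated at 0.389 to 0.792.

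By mean ratio the members ran from Gpc4 through Sdc2, Gpc1, Sdc4, Gpc6, Gpc5, Gpc3, Sdc1 and Gpc2 to Sdc3. Taken within each array, the difference between neighbours in that order had 1 sign on all 4 arrays for 2 of 9 pairs. Gpc2 minus Sdc3 was 0.24, 0.41, 0.24 and 0.43, a mean of 0.33 ± 0.10 (SD, n = 4). Gpc5 minus Gpc3 was 0.11, 0.062, 1.13 and 0.80, with an SD of 0.53 as large as its mean of 0.52. The other neighbours changed sign between arrays, Gpc4 minus Sdc2 on array 2 alone (-0.03, against 0.38 to 0.71 on the others). That pair had a mean of 0.44 and an SD of 0.35, and the remaining pairs that changed sign had means smaller than their SD. These differences were not tested. The genes closest to Gpc4 over the 4 ratios, by root mean square difference among 19761 genes, were Skap2 (0.11), Mx2 (0.22) and Twist1 (0.23). Among those closest to Sdc3 were Me1 (0.14) and the pseudogene Olfr1372-ps1 (0.18).

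Of 82 measured heparan sulfate genes outside the 2 families, 3 were called toward Cy5 and 3 toward Cy3, beside 1.28% and 0.865% of all genes. The calls toward Cy5 include Hgf, which passed the filter on dim probes through Cy5 alone. At an unadjusted p under 0.05 there were 32 of the 82, beside 21.2% of all genes, and the median ratio was 0.17, against 0.01 for all genes. None of 12 linker and chain polymerisation enzymes was called in limma (5 at an unadjusted p under 0.05), although 11 had a positive mean and the list's median was 0.41. The exception was the bright Ext1, a polymerase of the chain, at -0.87 (adjusted p = 0.194). Fam20b, the kinase that primes the linker, stood at 0.70 (adjusted p = 0.149). None of 16 sulfation and epimerisation enzymes was called either (1 at an unadjusted p under 0.05), with a median of 0.01. The brightest were Hs2st1 (-0.09, adjusted p = 0.858) and Ndst1 (-0.36, adjusted p = 0.572). Hs6st2, a 6-O-sulfotransferase singled out after its value was seen, had ratios of 2.82, 2.61, 4.81 and 1.81 and an adjusted p of 0.0622. The genes that edit or release the proteoglycans outside the cell had 0 calls of 11 in limma (4 at an unadjusted p under 0.05) and a median of -0.51. Among them the sheddase Mmp14 stood at 0.16 (adjusted p = 0.668) and the sulfatase Sulf1 at -1.49 (adjusted p = 0.131), while its relative Sulf2, also singled out after its value was seen, stood at 1.21 (adjusted p = 0.158).

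**Figure D3:**
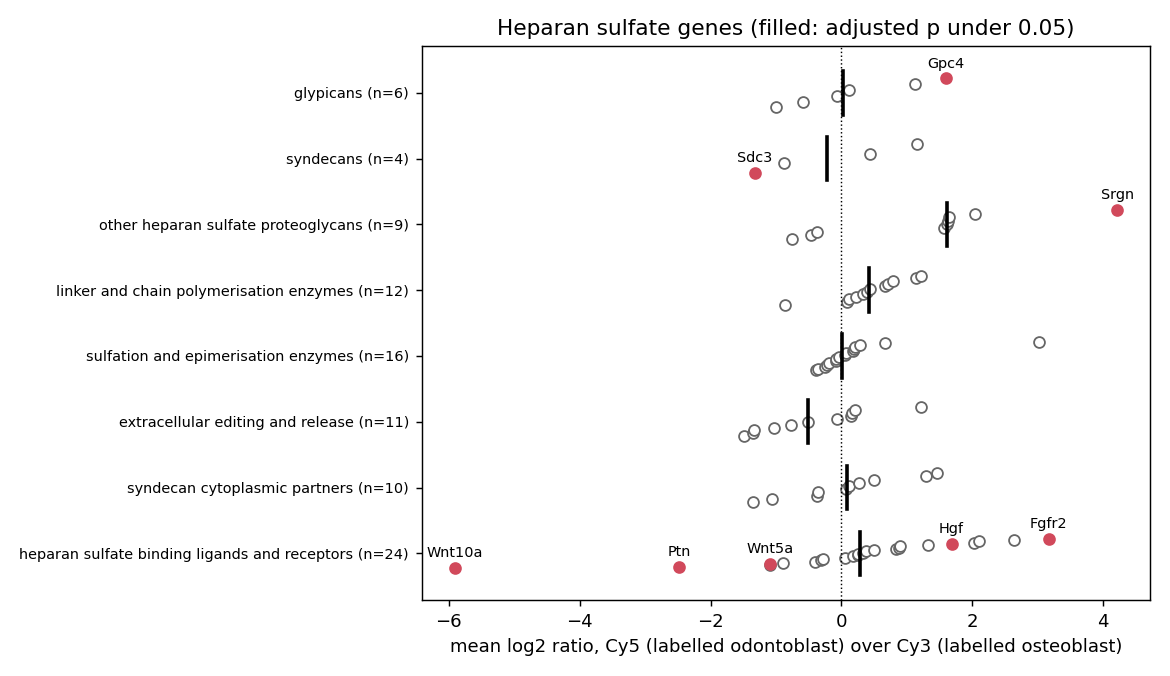
Mean log2 ratio of Cy5 (labelled odontoblast) over Cy3 (labelled osteoblast) for glypicans, syndecans and 6 further lists of heparan sulfate genes, 1 circle per gene, with the list median as a black line; filled circles have an adjusted p under 0.05 and are named. Calls lie among the proteoglycans and the ligands and receptors, and none among the enzymes, the editing genes or the cytoplasmic partners. Hgf passed the filter on dim probes through Cy5 alone.

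Among the cytoplasmic partners of syndecans 0 of 10 were called in limma (3 at an unadjusted p under 0.05). Actn1, the actin cross-linker that binds the Sdc4 tail, stood at -1.06 (adjusted p = 0.0708), and Sdcbp (syntenin), which binds the tails of all syndecans, at 0.27 (adjusted p = 0.437). Of 9 other proteoglycans, Srgn, the intracellular proteoglycan serglycin of blood cells, was 18.6-fold higher in Cy5 (log2 ratio 4.22 ± 0.51, SE, n = 4, limma adjusted p = 0.0320). Its ratios on arrays 1 to 4 were 3.68, 5.08, 5.48 and 2.62, all toward Cy5. Macrophage and leukocyte markers lay on that side in part, with 2 of 10 called higher in Cy5, 0 in Cy3 and 8 not called. Over all genes, 1.28% were called toward Cy5 and 0.865% toward Cy3. Means were positive for 8 of these markers and negative for 2, Csf1r (-0.39) and Cd68 (-0.10), and the bright Itgam stood at 0.17. The sums, which include Itgam and Csf1r, were 113365 to 199534 in Cy5 and 77629 to 107071 in Cy3. The part of these cells in the Srgn ratio was not tested. Cd44 (-0.75, adjusted p = 0.161) and the basement membrane proteoglycan Hspg2 (-0.46, adjusted p = 0.309) were bright and not called.

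Of 24 measured ligands and receptors that bind heparan sulfate, 2 were higher in Cy5 and 3 in Cy3. The shares of all genes were 1.28% toward Cy5 and 0.865% toward Cy3. Fgfr2, an FGF receptor of the skull sutures, had ratios of 3.18, 4.13, 3.13 and 2.23 and was 9.002-fold higher in Cy5, labelled odontoblast (limma adjusted p = 0.0222). Hgf, hepatocyte growth factor, had a fitted ratio of 1.68 (95% confidence interval 1.12 to 2.24, limma adjusted p = 0.0376). Its probe passed the filter through Cy5 alone, since on 0 of 4 arrays was it well above background in Cy3, so no fold is given. The call was lost with scale normalisation (adjusted p = 0.0594), and the ratio was 3.54 with the software's processed signals. Ptn was 5.59-fold higher in Cy3, labelled osteoblast (log2 ratio -2.48, limma adjusted p = 0.00906), and its ratio was -1.37 with median centring (adjusted p = 0.0188). Ptn encodes pleiotrophin, a ligand for which Sdc3 is a known receptor, and its ratios were -2.53, -2.67, -2.35 and -2.37. Ptn and Sdc3 were both called toward Cy3, so their shared sign follows from the calls. A link between them was not tested. Mdk (midkine), a relative of Ptn, stood at -0.41 (adjusted p = 0.623). The Wnt ligands Wnt10a (-5.91, adjusted p = 0.00579) and Wnt5a (-1.09, adjusted p = 0.0488) were also higher in Cy3, and the bright Fgfr1 (-0.31, adjusted p = 0.432) was not called. Wnt10a was also counted above among the 3 odontoblast markers called toward Cy3. Wnt5a was close to the threshold and kept its call in 4 of 13 alternatives. With any 1 array left out, 0 of these pathway genes were called higher in Cy5 and 0 to 2 in Cy3. The ratios then ranged from 2.85 to 3.48 for Fgfr2, from 3.80 to 4.75 for Srgn and from 1.55 to 1.85 for Hgf. Srgn also missed the threshold with no filter on dim probes (adjusted p = 0.0505).

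**Figure D4:**
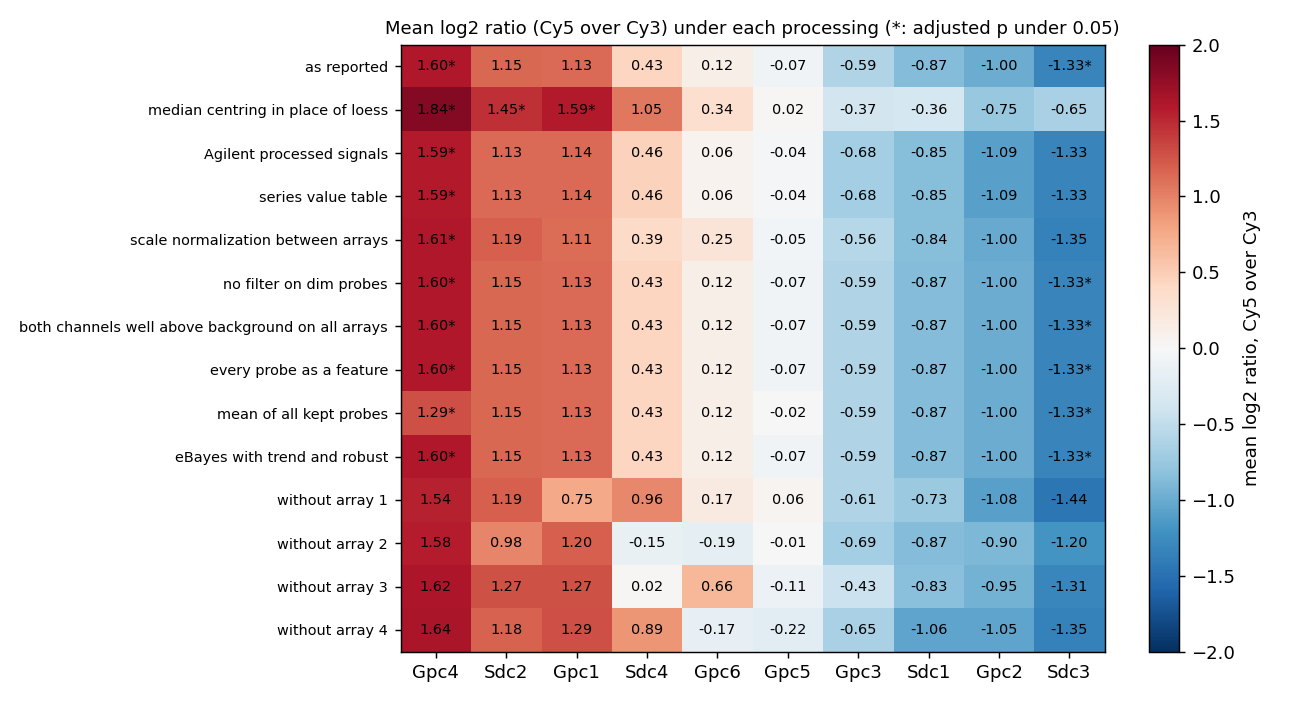
Mean log2 ratio of Cy5 over Cy3 for each member (columns, ordered by ratio) under the processing reported here and 13 alternatives (rows), with an asterisk for an adjusted p under 0.05. Gpc4 keeps its asterisk in all 9 alternatives that use 4 arrays and loses it when any array is left out, and Sdc3 keeps it in 5 of those 9.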

How the data were processed

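The authors' arrays were read with Agilent Feature Extraction, version 10.7.3.1 per the file headers. For 62976 spots the deposited files give, in each of 2 channels, mean spot and median background intensity values, processed intensity values, and the log10 ratio of Cy5 over Cy3. The deposited flags of 0 or 1 are other values set by the software. A deposited value table of the series equals that log10 ratio within 0.0001 for at least 99.3% of probes per array, with a median of 0. From the intensities, limma 3.58.1 in R 4.3.3 applied normexp (offset 50) and loess, with 3671 control spots at weight 0. Outlier values (949) were removed, and probes were kept (44239 of 55681) if flagged as well above background in Cy5, or in Cy3, on 3 or more arrays. The brightest probe stood for a gene. Symbols came from RefSeq (GRCm38.p6), where 27235 probes matched by accession. lmFit and eBayes tested 37360 features against 0, two-sided, with Benjamini-Hochberg adjustment. The fit was tested on simulated data. Channel intensities are after loess and Aquantile normalisation. Members and lists were chosen with earlier results of these data known. From each list the called genes and up to 2 bright uncalled genes were named. The authors' steps after scanning are not given in the sources used here. Alternatives changed the normalisation, filter, probe rule, variance prior or arrays used. The number of arrays limits the precision. Some items withheld for evaluation are not reported here.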

Additional observations from a re-analysis of the deposited data

Results flagged for a closer look

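The Gpc1 ratio on array 1 was 2.26, far from the other 3 arrays at 0.91, 0.70 and 0.64. The gap to the nearest of them was 0.838 of the whole range, above the 95% critical value of Dixon's test for 4 samples. On that array Gpc1 had both its highest Cy5 intensity (23226) and its lowest Cy3 intensity (4852). Chance flags about 1 in 20 groups, and 16 genes were examined in this way.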

How the results depend on the processing

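Each array's ratio already sets its 2 RNAs against each other, so the reported fit is paired by array. No further pairing was possible with 1 group of arrays. With median centring in place of loess, the median of all genes was 0.20 against 0.01, with 1177 genes called toward Cy5 and 242 toward Cy3, against 253 and 171 as reported. Among glypicans and syndecans it gave 3 higher in Cy5 (Gpc4, Gpc1 at 1.59, Sdc2 at 1.45) and 0 in Cy3 (Sdc3 at -0.65), put Gpc5 at 0.024, and gave 12 heparan sulfate pathway genes higher in Cy5. Over all genes, the software's processed signals gave 161 higher in Cy5 and 105 in Cy3, and the deposited table of values gave 167 in Cy5 and 106 in Cy3. With each of these 2, and with scale normalisation, 0 glypicans or syndecans were higher in Cy3, since Sdc3 missed the threshold at -1.33, -1.33 and -1.35. Leaving out 1 array left 0 to 104 genes higher in Cy5 and 0 to 77 in Cy3 by limma, while 3038 to 4166 had an unadjusted p under 0.05, against 4187 with all arrays. Both counts were 0 without array 1 and without array 2. Those fits called 0 glypicans or syndecans toward Cy5 and 0 toward Cy3 (with 7 of the 10 at an unadjusted p under 0.05 on all arrays), and 0 pathway genes toward Cy5 and 0 to 2 toward Cy3. The ratio then ranged from 1.54 to 1.64 for Gpc4 and from -1.44 to -1.20 for Sdc3. Signs turned for Gpc5 (-0.22 to 0.058, without array 1), Gpc6 (-0.19 to 0.66, without array 2 or array 4) and Sdc4 (-0.15 to 0.96, without array 2). The cause of these shifts was not tested, beyond the smaller number of arrays in the fits that leave 1 out. Gpc2, Gpc3 and Sdc1 kept their sign and stayed uncalled in all 13 alternatives. Signal over background limits the second probe of Gpc3, above background on 0 arrays, and that of Gpc5, above background in Cy3 on 1 array.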
